A study of Mus musculus with 16 samples.

Results

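The genes described here are 40 mouse genes of neutrophil granules and neutrophil maturation, taken from the 49585 genes listed for each library. They were picked by symbol as known primary, secondary and tertiary granule genes and mature neutrophil surface genes. All 40 were found in the files and were above 0 in every library. They are ordered by role. Primary granule and promyelocyte genes number 6, secondary granule and myelocyte genes 13, cytosolic, oxidase, lysozyme and gelatinase genes 7, and genes of mature neutrophils 14.

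The study sequenced poly(A) RNA of CD45+ cells, the leukocytes, of bone marrow and spleen from C57BL/6J mice labelled 12 week. Dbh-Cre mice, in which Cre is driven by the gene of dopamine beta-hydroxylase, a catecholamine-synthesis enzyme, received AAV-DIO-hM3Dq-mCherry or AAV-DIO-mCherry on both sides of a brain site given as VLM. hM3Dq is a designer receptor that excites neurons when bound by the drug CNO, and mCherry is a fluorescent protein with no receptor. Mice of both genotypes, DbhVLM-hM3Dq and DbhVLM-mCherry, received CNO, and cells were taken 4 hours later, so the controls also carried the Cre allele, a virus and the drug. With 4 libraries in each of 4 groups there were 16 libraries, numbered 5 to 8 for hM3Dq and 1 to 4 for mCherry in both tissues. Whether each library is 1 mouse is not stated, so the p-values measure the spread between these libraries. The comparisons ask how the RNA of the 40 genes differed between marrow and spleen, and between hM3Dq and mCherry within each tissue.

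Neutrophils are made in the bone marrow and fill their granules in sequence. Promyelocytes make the serine proteases and myeloperoxidase of the primary granules, myelocytes and metamyelocytes make the secondary granule proteins such as lactoferrin, and later stages make gelatinase and the receptors with which mature cells sense bacteria and cytokines. The transcription factors PU.1 and C/EBP-epsilon are known drivers of these programmes, so the RNA of each set of genes marks a stage.

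Because the 40 genes mark 1 lineage and differed together between marrow and spleen, the promoter windows were searched for the DNA motifs of those factors. RefSeq windows of the build GRCm38.p6, running from 250 bases before to 50 bases after a gene's start, were given for 35 of the 40 genes. Hp, Orm1, Mmp9, Trem3 and Wfdc21 had none. The C/EBP motif TTGCNNAA, on either strand, was present in 9 of the 35 windows (25.7%) and in 10.8% of all 32851 windows. The ETS or PU.1 core GAGGAA, on either strand, was present in 21 of 35 (60%) and in 28.3% of all windows. Both motifs were present in 5 of 35 (14.3%) and in 2.92% of all windows and in the 35 windows 0 matches of the pair shared a base. The glucocorticoid receptor motif GNACANNNTGTNC, searched on either strand because adrenal steroids are known to act on neutrophils, was present in 0 of 35 and in 0.475% of all windows. With so low a share over all windows, a set of 35 would seldom hold a match, so its absence says little about these genes. A match is a description of the letters, not a bound site.

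The windows of 6 genes are printed because they carry results given below: Elane and Ngp are the highest primary and secondary granule genes, Ltf holds both motifs, and Clec4d, Csf3r and Trem1 are genes called between hM3Dq and mCherry. Capitals mark the motif matches, and each is written 5′ to 3′ on the gene's own strand, which is the plus strand for all 6. They lie at chr10:79886062-79886361 (Elane), chr9:110419558-110419857 (Ngp), chr9:111019042-111019341 (Ltf), chr6:123261857-123262156 (Clec4d), chr4:126024409-126024708 (Csf3r) and chr17:48232489-48232788 (Trem1).
Elane: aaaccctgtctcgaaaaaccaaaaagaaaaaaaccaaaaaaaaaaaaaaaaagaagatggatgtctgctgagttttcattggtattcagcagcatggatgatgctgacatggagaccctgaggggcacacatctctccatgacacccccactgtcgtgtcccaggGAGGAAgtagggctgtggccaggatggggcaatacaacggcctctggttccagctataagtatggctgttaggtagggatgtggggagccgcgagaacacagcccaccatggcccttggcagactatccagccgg
Ngp: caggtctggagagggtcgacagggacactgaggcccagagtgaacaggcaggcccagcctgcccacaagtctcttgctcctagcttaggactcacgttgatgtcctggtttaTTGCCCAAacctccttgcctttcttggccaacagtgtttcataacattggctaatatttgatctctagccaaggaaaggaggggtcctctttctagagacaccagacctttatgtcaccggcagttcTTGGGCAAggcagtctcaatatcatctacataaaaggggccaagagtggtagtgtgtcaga
Ltf: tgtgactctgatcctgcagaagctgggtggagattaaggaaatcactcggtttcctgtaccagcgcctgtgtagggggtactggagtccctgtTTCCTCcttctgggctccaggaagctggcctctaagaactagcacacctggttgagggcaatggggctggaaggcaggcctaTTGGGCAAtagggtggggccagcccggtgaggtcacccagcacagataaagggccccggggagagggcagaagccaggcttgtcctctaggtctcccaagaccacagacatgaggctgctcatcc
Clec4d: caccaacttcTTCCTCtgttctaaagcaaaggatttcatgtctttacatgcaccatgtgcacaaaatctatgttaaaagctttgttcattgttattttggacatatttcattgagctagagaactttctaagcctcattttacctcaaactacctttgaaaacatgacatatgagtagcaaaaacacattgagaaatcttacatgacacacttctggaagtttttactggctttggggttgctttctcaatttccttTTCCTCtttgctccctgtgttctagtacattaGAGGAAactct
Csf3r: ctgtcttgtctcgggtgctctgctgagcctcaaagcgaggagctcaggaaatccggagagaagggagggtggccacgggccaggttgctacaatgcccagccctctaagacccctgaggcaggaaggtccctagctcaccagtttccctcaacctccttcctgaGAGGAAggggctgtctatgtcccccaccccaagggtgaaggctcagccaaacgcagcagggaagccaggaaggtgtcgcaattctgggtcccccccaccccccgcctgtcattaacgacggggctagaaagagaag
Trem1: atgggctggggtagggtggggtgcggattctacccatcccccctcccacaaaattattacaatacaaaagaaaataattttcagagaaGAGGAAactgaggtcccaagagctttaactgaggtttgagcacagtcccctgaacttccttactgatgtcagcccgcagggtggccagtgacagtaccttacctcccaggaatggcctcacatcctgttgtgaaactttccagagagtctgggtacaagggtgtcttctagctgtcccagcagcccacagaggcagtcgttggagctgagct
Ngp held 2 C/EBP matches and no ETS match, Ltf held 1 of each, Clec4d held 3 ETS matches, and Elane, Csf3r and Trem1 held 1 ETS match each. The windows of Chil3, Hdc and Mxd1, also called between hM3Dq and mCherry, held no match of any of the motifs. Orm1 was called too but had no window.

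Each library held 11344502 to 16962763 fragments assigned to genes, as recovered from the deposited FPKM (fragments scaled to exon length and to the total assigned). Levels below are deposited FPKM, which can be compared between genes because they are per length. Changes are log2 differences between group means of log2(FPKM after composition scaling + 0.1), given with their standard errors, and a gene is called when its limma p-value, adjusted by Benjamini-Hochberg over all genes tested, was under 0.05. All 40 genes passed the filter on low values in every comparison, with at least 10 recovered fragments in at least 4 libraries. The lowest value of any of them was 20 fragments, for Orm1 in a spleen mCherry library. The neutrophil marker Ly6g stood at 122 to 216 FPKM in marrow hM3Dq and 183 to 260 FPKM in marrow mCherry libraries. In spleen it stood at 5.24 to 20.6 FPKM with hM3Dq and 4.01 to 13.9 FPKM with mCherry.

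In control marrow the 40 genes made up a large part of the RNA. They took 6.53% to 8.09% of assigned fragments in the 4 marrow mCherry libraries and 0.399% to 0.69% in the 4 spleen mCherry libraries. Of the marrow share, the 13 secondary granule genes took 3.35% to 3.97%, the 7 cytosolic, oxidase, lysozyme and gelatinase genes 2.54% to 3.35%, the 14 mature genes 0.318% to 0.523%, and the 6 primary granule genes 0.232% to 0.315%. In marrow hM3Dq libraries the 40 genes took 6.1% to 8.24% and in spleen hM3Dq libraries 0.401% to 0.818%, ranges that overlapped those of the mCherry libraries in each tissue.

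**Figure D1:**
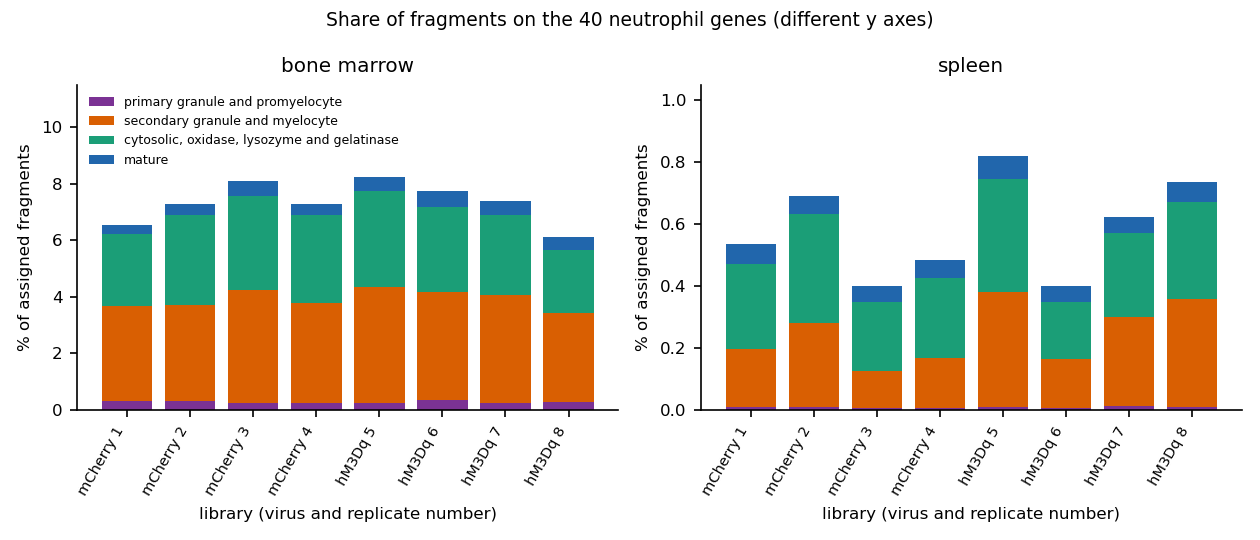
Share of assigned fragments, in percent, on the 40 neutrophil genes in each library, stacked by role, for marrow (left) and spleen (right, with its own y axis). Marrow libraries lie between 6.1% and 8.24% and spleen libraries between 0.399% and 0.818%.

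Every one of the 40 genes was higher in marrow than in spleen among the mCherry libraries. All 40 were called, beside 34.5% of the 16943 genes tested that were called higher in marrow and 69.5% called in either direction. After composition scaling, the marrow and spleen libraries did not overlap for 39 of the 40, beside 33.2% of all genes that lay higher in marrow without overlap. The median change over the 40 genes was 4.14 on the log2 scale, and over all genes tested it was -0.02.

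The early genes differed most between the tissues. The median log2 difference was 5.58 for the primary granule genes, 4.69 for the secondary granule genes, 3.66 for the cytosolic, oxidase, lysozyme and gelatinase genes, and 3.29 for the mature genes. In each library, the median log2 FPKM of the mature genes minus that of the primary granule genes was -1.69 to -0.85 in marrow mCherry and 0.74 to 1.37 in spleen mCherry. Marrow libraries thus held more RNA per length of primary than of mature genes at the median, and spleen libraries held less. In bulk RNA, fewer cells of a type and less RNA per cell cannot be told apart. Of the mature genes, Csf3r, Clec4d and Trem1 are also expressed by monocytes, and the part of other cells in these medians was not tested.

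Among primary granule genes, Elane, which encodes neutrophil elastase, had the largest difference. Its level was 520, 552, 498 and 423 FPKM in marrow mCherry libraries 1 to 4 and 10.9, 16, 6.34 and 12.5 FPKM in the spleen mCherry libraries. All marrow values were far above all spleen values, and the log2 difference was 5.76 ± 0.24 (54.3-fold; limma adjusted p = 1.37e-07). Mpo, which encodes myeloperoxidase, stood at 517, 459, 352 and 334 FPKM in marrow mCherry and at 12.0, 13.6, 6.37 and 9.88 FPKM in spleen mCherry, with a log2 difference of 5.59 ± 0.24. Ctsg (cathepsin G), Prtn3 (proteinase 3), Ms4a3 (a membrane protein of granulocyte-monocyte progenitors) and Fcnb (ficolin B) differed by 5.65, 5.57, 5.50 and 4.73 on the log2 scale. Their mean marrow mCherry levels were 191, 213, 58.6 and 146 FPKM. Mpo shares 512 exon bases with the opposite-strand gene Gm11505, listed at a mean of 713 FPKM in marrow mCherry, and Prtn3 shares 159 with Plppr3; with no strand setting stated, fragments of such pairs cannot be told apart.

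Secondary granule genes took the largest mean share of fragments of the 4 roles in marrow mCherry, 3.57%, while in spleen mCherry their mean share of 0.185% was below the 0.277% of the cytosolic, oxidase, lysozyme and gelatinase genes. Ngp, which encodes neutrophilic granule protein, stood at 9036, 9462, 10685 and 9649 FPKM in marrow mCherry and at 471, 719, 290 and 398 FPKM in spleen mCherry, a log2 difference of 4.71 ± 0.25. Camp, which encodes the antimicrobial cathelicidin, stood at 2944, 3642, 4842 and 4098 FPKM in marrow and at 165, 255, 102 and 143 FPKM in spleen, a log2 difference of 4.86 ± 0.26. Spleen mCherry library 3 was the lowest spleen control for both, and for Elane and Mpo as well. Ltf (lactoferrin) and Lcn2 (a siderophore-binding lipocalin) had mean marrow mCherry levels of 2477 and 1353 FPKM and log2 differences of 4.69 and 4.70. Olfm4 (olfactomedin 4) had the largest difference of the class, 5.28, at a mean of 66.3 FPKM, and Orm1 (orosomucoid) the smallest, 3.83, at 33.1 FPKM. The differences of Mmp8 (neutrophil collagenase), Itgb2l (an integrin beta-like chain), Cd177 (a surface glycoprotein), Chil3 (the chitinase-like protein Ym1), Anxa1 (annexin A1), Pglyrp1 (a peptidoglycan-binding protein) and Hp (haptoglobin) ran from 3.86 for Hp to 4.96 for Mmp8.

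S100a9 and S100a8, which together form calprotectin, the main cytosolic protein of neutrophils, were the highest of the 40 in marrow mCherry, while in spleen mCherry S100a9 was highest and S100a8 ranked below Lyz2. S100a9 stood at 19209, 26273, 29266 and 25794 FPKM in marrow mCherry and at 1594, 1914, 799 and 1187 FPKM in spleen mCherry. S100a8 stood at 9198, 11472, 11466 and 11003 FPKM in marrow and at 659, 858, 360 and 521 FPKM in spleen. Their log2 differences were 4.52 ± 0.29 and 4.50 ± 0.25, and neither gene's tissues overlapped. The other genes of the class differed less: Mmp9 (gelatinase B) by 4.13, Padi4 (which citrullinates histones) by 3.66, Lyz2 (lysozyme) by 2.98, and the oxidase subunit genes Ncf1 and Cybb by 2.36 and 1.87. Lyz2, Ncf1 and Cybb are also expressed by monocytes and macrophages.

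The tissue differences of the mature genes spanned the widest range of the 4 roles, from 0.50 to 4.68. Retnlg, a resistin-like secreted protein, stood at 1509, 2443, 3008 and 1903 FPKM in marrow mCherry and at 124, 132, 103 and 104 FPKM in spleen mCherry, a log2 difference of 4.48 ± 0.19. Wfdc21, of the whey acidic protein family, stood at 383, 523, 556 and 507 FPKM in marrow and at 26.2, 38.8, 13.2 and 19.6 FPKM in spleen, a difference of 4.68 ± 0.28. Both were separated between tissues in every library. Csf3r, the receptor of granulocyte colony-stimulating factor, differed by only 1.80 ± 0.13, with means of 134 FPKM in marrow and 45.7 FPKM in spleen. Its rank among the 40 genes was 26 in marrow and 13 in spleen. The differences of Fpr2, Trem3, Stfa2l1, Fpr1, Hdc, Trem1, Slfn4, Msrb1, Mxd1 and Clec4d ran down from 4.16 for Fpr2 to 2.24 for Clec4d. Wfdc17 was the gene whose groups overlapped: 14.7 to 27.3 FPKM in marrow and 14.4 to 21 FPKM in spleen, a difference of 0.50 ± 0.19 (limma adjusted p = 0.0385). That call was lost with no composition scaling, with no filter, and on leaving out any of marrow mCherry libraries 1, 2 and 4 or spleen mCherry libraries 1, 3 and 4, so 39 of 40 were called there.

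**Figure D2:**
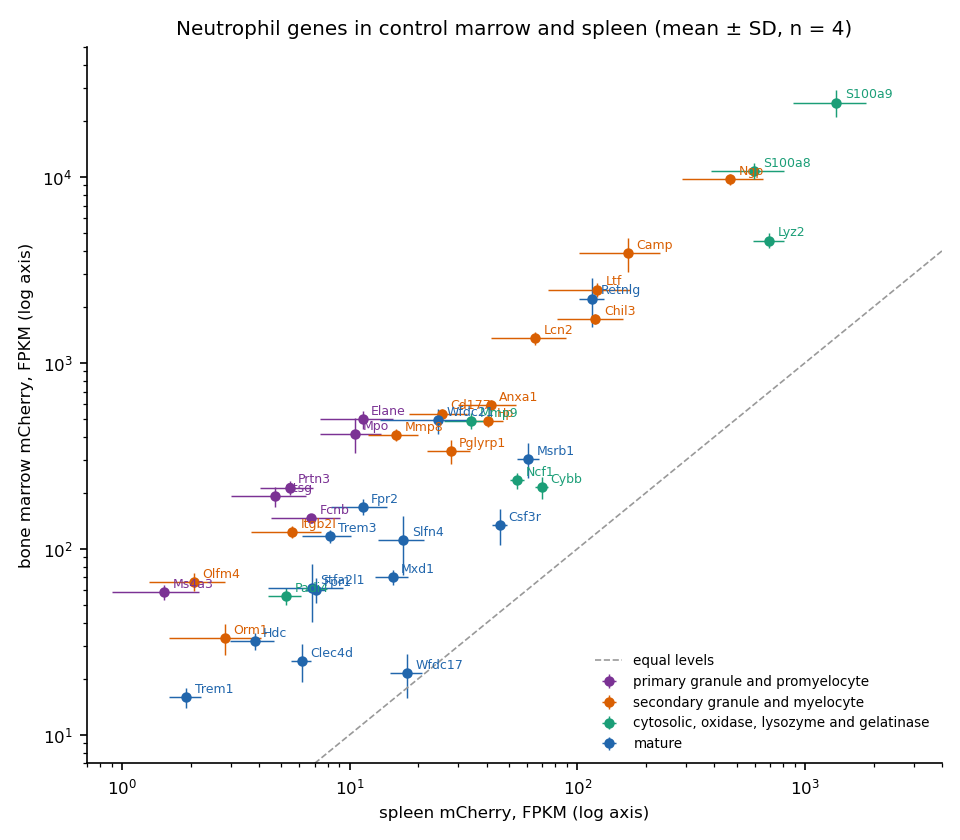
Mean level of each of the 40 genes in the 4 spleen mCherry libraries (x axis) and the 4 marrow mCherry libraries (y axis), in FPKM on log axes, with SD bars and colours for roles. All points lie above the dashed line of equal levels, with Wfdc17 (21.5 against 17.8 FPKM) nearest to it and Elane (498 against 11.4 FPKM) among the farthest.

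In bone marrow, 4 of the 40 genes were called between hM3Dq and mCherry, all higher with hM3Dq: Chil3, Orm1, Mxd1 and Clec4d. That is 10% of the genes, beside 4.85% of the 16094 genes tested that were called in either direction, 3.14% called higher and 1.71% called lower. Without adjustment 13 of the 40 had p under 0.05, beside 23.6% of all genes tested. Voom on the recovered fragments called 6, the same 4 with Trem1 higher and Lyz2 lower, beside 1109 of all genes tested. The median change of the 40 was -0.04, beside -0.00 for all genes tested, and 15 lay above 0 and 25 below. After composition scaling, the hM3Dq libraries lay above all mCherry libraries for 5 genes and below all of them for 4, beside 8.38% and 7.07% of all genes. The 4 were Fcnb, Lyz2, Padi4 and Trem3, and in deposited FPKM only Lyz2 of these did not overlap.

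Clec4d, a C-type lectin receptor of neutrophils and monocytes on chromosome 6 (chr6:123262111-123275265, GRCm38), had the largest difference of the 40 in marrow. Its level was 39.4, 95.8, 62.0 and 71.7 FPKM in hM3Dq libraries 5 to 8 and 19.2, 23.5, 33.0 and 24.0 FPKM in mCherry libraries 1 to 4. Every hM3Dq library was above every mCherry library, with hM3Dq library 5 close to mCherry library 3. The log2 change was 1.31 ± 0.26 (2.49-fold; limma adjusted p = 0.0219).

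Chil3, which encodes Ym1, a lectin-like protein made in quantity by myelocytes (chr3:106147554-106167564, GRCm38), stood at 2866, 2776, 2672 and 2267 FPKM with hM3Dq and 1623, 1743, 1863 and 1657 FPKM with mCherry. The groups did not overlap, and the log2 change was 0.54 ± 0.12 (1.46-fold; limma adjusted p = 0.0349). Its near copy Chil4 stood at 63.7 to 86.0 FPKM with hM3Dq and 48.5 to 57.1 FPKM with mCherry, so a split of fragments between the pair is uncertain. Orm1, an acute-phase glycoprotein gene (chr4:63344560-63348163, GRCm38), stood at 61.5, 52.1, 55.1 and 44.5 FPKM with hM3Dq and 27.3, 31.8, 41.8 and 31.5 FPKM with mCherry. The groups did not overlap, and the log2 change was 0.62 ± 0.14 (1.54-fold; limma adjusted p = 0.033). Its copies Orm2 and Orm3 were low, at 2.48 to 4.47 and 0.795 to 2.19 FPKM with hM3Dq.

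Mxd1, a MAX partner that represses MYC targets as cells stop dividing (chr6:86647042-86669161, GRCm38), stood at 93.3, 105, 93.4 and 91.6 FPKM with hM3Dq and 67.5, 68.3, 80.3 and 66.3 FPKM with mCherry. The hM3Dq libraries were all higher, and the log2 change was 0.37 ± 0.09 (1.29-fold; limma adjusted p = 0.0476). Among the cell cycle markers, 0 of 6 were called in marrow by limma (Top2a and Plk1 had unadjusted p of 0.00843 and 0.00408). None of the 6 had a change above 0, and their median change was -0.31. The summed level of the 6 was 224 to 341 FPKM with hM3Dq and 308 to 333 FPKM with mCherry.

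The number of calls moved when a library was left out. All 4 were called without mCherry library 3, and 3 genes were called without hM3Dq library 5, Clec4d with Hdc higher and Mmp9 lower. None of the 40 genes was called on leaving out hM3Dq library 6 or mCherry library 1, 2 or 4, Clec4d alone was called without hM3Dq library 7, and Chil3 and Orm1 without hM3Dq library 8. The changes themselves moved little: on leaving out a library, Clec4d ran from 1.12 to 1.56, Orm1 from 0.56 to 0.74, Chil3 from 0.51 to 0.61 and Mxd1 from 0.33 to 0.43 on the log2 scale. With no filter on low values 0 of the 40 were called, and with the haemoglobin share of each library as a covariate 2 were called, Clec4d and Orm1.

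**Figure D3:**
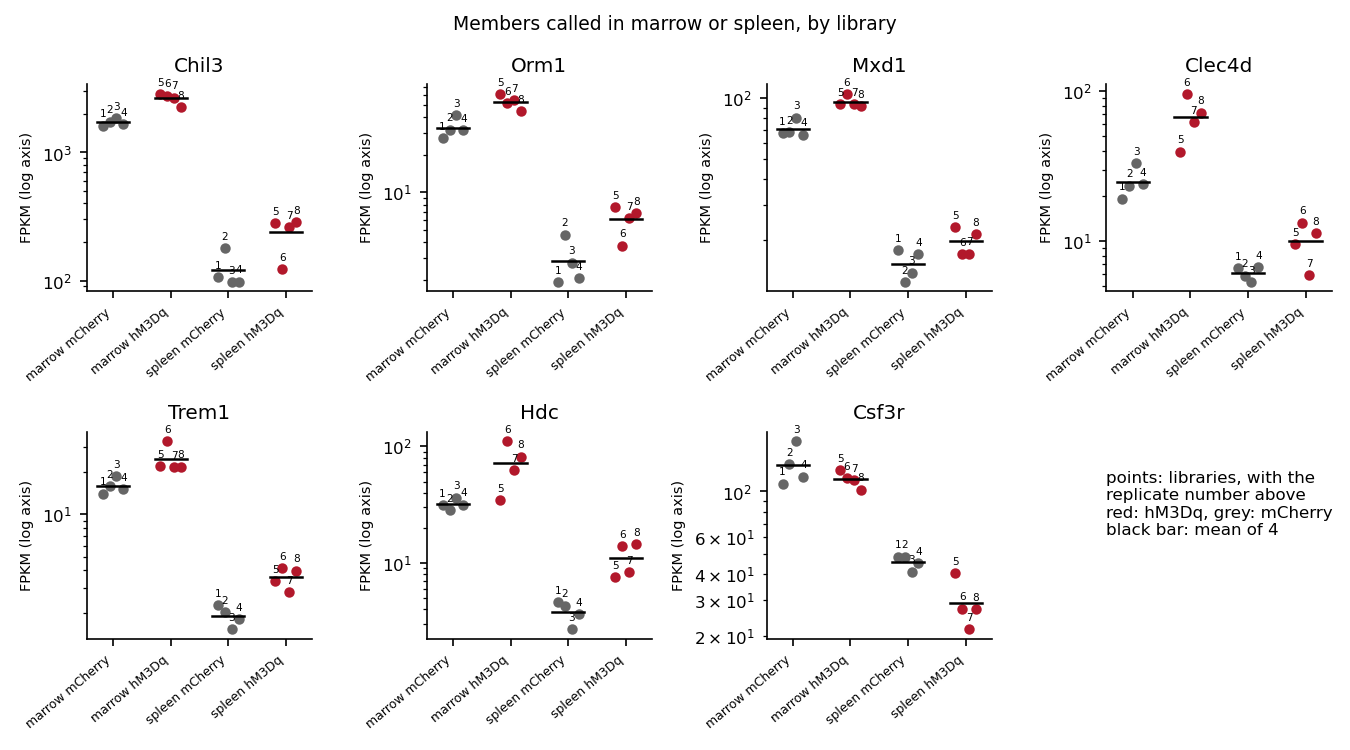
Level in each library, in FPKM on a log axis, of the 7 genes called between hM3Dq and mCherry in marrow or spleen, 1 panel per gene and 1 point per library in the 4 groups. In marrow, the hM3Dq points of Clec4d (39.4 to 95.8 FPKM) lie above the mCherry points (19.2 to 33.0 FPKM), and in spleen those of Hdc (7.59 to 14.6 FPKM) lie above its mCherry points (2.71 to 4.60 FPKM).

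No primary granule gene was called in marrow between hM3Dq and mCherry, by limma or voom. Elane stood at 414, 616, 469 and 533 FPKM with hM3Dq, which spans its mCherry values, and its change was -0.05 ± 0.14. Mpo stood at 368, 556, 361 and 449 FPKM with hM3Dq and changed by -0.01 ± 0.19. Ctsg, Ms4a3, Prtn3 and Fcnb had changes of 0.03, -0.02, -0.09 and -0.14. On the log2 scale the 6 thus ran from -0.14 to 0.03, with unadjusted p of 0.126 or more.

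Beside Chil3 and Orm1, the other 11 secondary granule genes were not called in marrow. Ngp stood at 11151, 10949, 10644 and 9155 FPKM and Camp at 3696, 3667, 4157 and 3141 FPKM with hM3Dq, and both overlapped their mCherry ranges, with changes of 0.04 ± 0.17 and -0.14 ± 0.18. Mmp8 (0.36 ± 0.13, limma adjusted p = 0.131) and Hp (0.31 ± 0.12, limma adjusted p = 0.157) had the next largest positive changes. Ltf (-0.31 ± 0.15) and Pglyrp1 (-0.27 ± 0.13) had the lowest values of the class.

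The 7 cytosolic, oxidase, lysozyme and gelatinase genes all had changes below 0 in marrow, except that S100a8 and S100a9 were just above 0 (0.03 and 0.0023) with no composition scaling. None of the 7 was called by limma, 3 had unadjusted p under 0.05, and Lyz2 was called by voom. S100a9 stood at 29293, 26320, 25194 and 19737 FPKM and S100a8 at 13381, 11764, 10411 and 8899 FPKM with hM3Dq, with changes of -0.07 ± 0.24 and -0.04 ± 0.19. Lyz2 was 2444 to 3811 FPKM with hM3Dq and 3923 to 4852 FPKM with mCherry, without overlap, with a change of -0.54 ± 0.17 (limma adjusted p = 0.0939). Its near copy Lyz1 was 188 to 300 FPKM with hM3Dq and 304 to 402 FPKM with mCherry. Mmp9 (-0.44 ± 0.16, limma adjusted p = 0.139), Padi4 (-0.37 ± 0.13, 0.118), Cybb (-0.18 ± 0.17, 0.551) and Ncf1 (-0.11 ± 0.13, 0.653) were also below 0. Ncf1 shares 408 exon bases with the opposite-strand gene Gtf2ird2.

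Among mature genes of marrow, those not called ran from Trem3 at -0.31 to Hdc at 0.99. Hdc, which encodes histidine decarboxylase, the enzyme that makes histamine, stood at 34.4, 111, 63.0 and 81.7 FPKM with hM3Dq and 31.5, 28.3, 36.4 and 31.6 FPKM with mCherry. Libraries 6, 7 and 8 of hM3Dq were above all mCherry libraries and library 5 was within them, and the change was 0.99 ± 0.30 (limma adjusted p = 0.0934). Trem1, a receptor that amplifies inflammatory signals, stood at 22.1, 33.1, 21.6 and 21.8 FPKM with hM3Dq and 14.0, 15.9, 18.6 and 15.1 FPKM with mCherry. Its groups did not overlap, and the change was 0.54 ± 0.14 (limma adjusted p = 0.066). Retnlg stood at 2829, 3282, 3029 and 2618 FPKM and Wfdc21 at 585, 500, 484 and 413 FPKM with hM3Dq, with changes of 0.38 ± 0.20 and -0.06 ± 0.13. Csf3r stood at 127, 116, 113 and 102 FPKM with hM3Dq and 109, 135, 175 and 118 FPKM with mCherry, a change of -0.28 ± 0.14. Of the rest, Wfdc17 changed by 0.42, Fpr1 and Fpr2 (receptors of formylated bacterial peptides) by 0.20 and 0.09, Stfa2l1 (a stefin-like gene in a family of near copies) by 0.17, Msrb1 (a methionine sulfoxide reductase) by -0.02 and Slfn4 (a schlafen family gene) by -0.24.

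**Figure D4:**
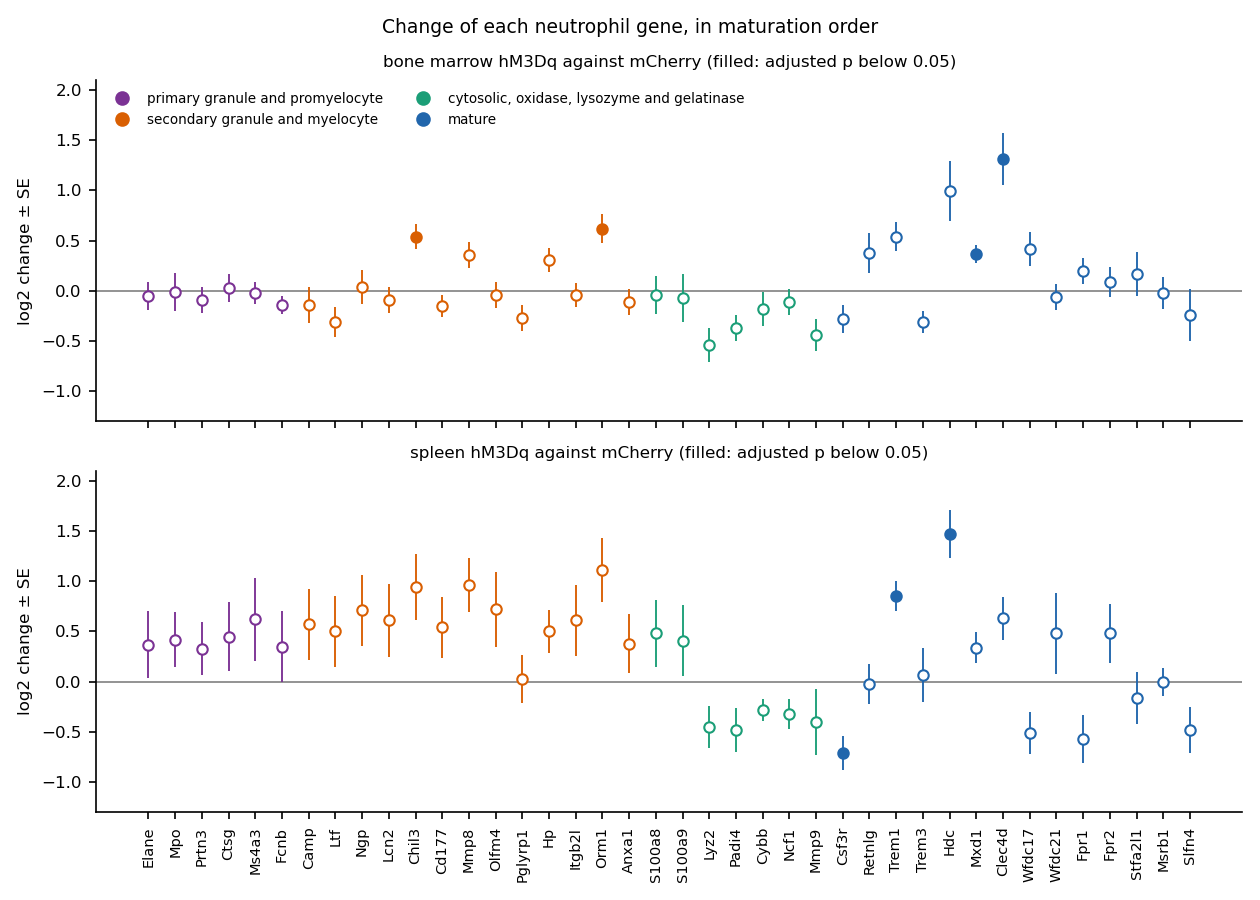
Log2 change with its standard error of each of the 40 genes, hM3Dq against mCherry, in marrow (upper panel) and spleen (lower panel), in maturation order, with filled points for adjusted p below 0.05. In marrow the primary granule genes lie between -0.14 and 0.03, and in spleen they lie between 0.33 and 0.62.

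In spleen, 3 of the 40 genes were called between hM3Dq and mCherry, all of mature neutrophils: Hdc and Trem1 were higher and Csf3r was lower with hM3Dq. That is 7.5% of the 40, beside 8.14% of the 17076 genes tested, 3.72% higher and 4.42% lower, so the share was near the background. Without adjustment 12 of the 40 had p under 0.05, beside 26.5% of all genes tested. Voom called 4, the same 3 with Mmp8 higher, beside 1743 of all genes tested. The median change of the 40 was 0.41 on the log2 scale and that of all genes tested -0.01. After composition scaling, the hM3Dq libraries lay above all mCherry libraries for 2 genes and below for 1, beside 8.61% and 10.1% of all genes.

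Hdc (chr2:126593667-126619299, GRCm38) had the largest change of the 40 in spleen. Its level was 7.59, 14.0, 8.37 and 14.6 FPKM with hM3Dq and 4.60, 4.30, 2.71 and 3.64 FPKM with mCherry. No library overlapped, and the log2 change was 1.47 ± 0.24 (2.77-fold; limma adjusted p = 0.0125). It was called on leaving out each of the 8 spleen libraries in turn, with changes from 1.31 to 1.62 and adjusted p over all alternatives from 0.00605 to 0.0391. Hdc is also a gene of basophils and mast cells. The summed level of 6 eosinophil and basophil markers was 55.5 to 152 FPKM with hM3Dq and 57.5 to 95.1 FPKM with mCherry in spleen, none of the 6 was called by limma (Ccr3 had an unadjusted p of 0.00468) or stood at 0, and their part in the result was not tested.

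Trem1 (chr17:48232768-48246924, GRCm38) stood at 3.34, 4.15, 2.80 and 3.98 FPKM with hM3Dq and 2.26, 2.02, 1.53 and 1.80 FPKM with mCherry in spleen. All hM3Dq libraries were higher, and the log2 change was 0.85 ± 0.15 (1.80-fold; limma adjusted p = 0.0169). Its adjusted p was 0.055 without hM3Dq library 8 and 0.0503 without mCherry library 4, with changes of 0.78 and 0.81.

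Csf3r (chr4:126024550-126044440, GRCm38) was the 1 gene of the 40 called lower with hM3Dq when all 8 libraries of a tissue were tested by limma. Its level in spleen was 40.4, 27.1, 21.6 and 26.9 FPKM with hM3Dq and 48.4, 48.4, 41.0 and 45.1 FPKM with mCherry. The groups did not overlap, although hM3Dq library 5 was close to mCherry library 3, and the log2 change was -0.71 ± 0.17 (1.63-fold lower; limma adjusted p = 0.0393). On leaving out a library it was called in 1 of 8 fits, that without hM3Dq library 5, and its adjusted p in the alternatives ran from 0.00439 to 0.102. Monocytes also express Csf3r. In spleen 2 of 8 monocyte markers were called, both lower with hM3Dq: Ccr2 (-0.98 ± 0.16, limma adjusted p = 0.0127) and Ms4a6c (-0.30 ± 0.07, limma adjusted p = 0.0437). None of the 8 had a change above 0, and their median change was -0.20. The summed level of the 8 was 161 to 200 FPKM with hM3Dq and 173 to 237 FPKM with mCherry. Their part in the result was not tested.

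All 6 primary and all 13 secondary granule genes had changes above 0 in spleen, and none was called by limma. Without adjustment 0 primary and 4 secondary granule genes had p under 0.05, and voom called Mmp8. On leaving out a library, Pglyrp1 had changes from -0.11 to 0.27. The median log2 change was 0.39 for the primary and 0.61 for the secondary granule genes. The libraries within each group varied widely. Elane stood at 15.9, 8.53, 20.3 and 14.7 FPKM with hM3Dq, Mpo at 14.8, 9.32, 17.7 and 14.5 FPKM, Ngp at 956, 417, 770 and 970 FPKM and Camp at 306, 132, 259 and 297 FPKM. For each of these the groups overlapped: hM3Dq library 6, the lowest of its group, lay below mCherry library 2, the highest of its group. The changes were 0.37 ± 0.33, 0.42 ± 0.27, 0.71 ± 0.35 and 0.57 ± 0.35. Spleen hM3Dq library 6 also had the lowest haemoglobin share of its reads, 0.133%, beside 0.569% to 1.68% in the spleen mCherry libraries.

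Orm1, Mmp8 and Chil3 had the largest changes of the 13 secondary granule genes in spleen and also in marrow, while the next in spleen, Olfm4 (0.72) and Ngp (0.71), had marrow changes of -0.04 and 0.04. Orm1 stood at 7.64, 3.75, 6.26 and 6.86 FPKM with hM3Dq and 1.92, 4.58, 2.74 and 2.06 FPKM with mCherry in spleen, a change of 1.11 ± 0.32 (limma adjusted p = 0.0682). Chil3 stood at 281, 122, 262 and 287 FPKM with hM3Dq and 106, 178, 97.5 and 97.8 FPKM with mCherry, a change of 0.94 ± 0.33 (limma adjusted p = 0.11). Mmp8 had a change of 0.96 ± 0.27 (limma adjusted p = 0.0621) and Hp one of 0.50 ± 0.21 (limma adjusted p = 0.165). Library 6 of hM3Dq and library 2 of mCherry were those that overlapped for Orm1 and Chil3. Leaving out hM3Dq library 6, or hM3Dq library 5, brought the number of the 40 called from 3 to 6, and leaving out hM3Dq library 8 or mCherry library 4 brought it to 1.

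The cytosolic and oxidase class was divided in spleen, and 0 of 7 were called by limma or voom, with 1 of 7, Cybb, at an unadjusted p under 0.05. S100a9 stood at 2535, 1049, 1747 and 2027 FPKM and S100a8 at 1124, 478, 802 and 966 FPKM with hM3Dq, with changes of 0.41 ± 0.35 and 0.48 ± 0.33. Lyz2 (-0.45), Padi4 (-0.48), Mmp9 (-0.40), Ncf1 (-0.32) and Cybb (-0.28) had negative changes, with limma adjusted p of 0.147 or more. The mature genes not called ran from -0.57 for Fpr1 and -0.51 for Wfdc17 to 0.63 for Clec4d. Clec4d stood at 9.57, 13.3, 5.92 and 11.3 FPKM with hM3Dq and 6.61, 5.90, 5.35 and 6.70 FPKM with mCherry, with library 7 of hM3Dq inside the mCherry range (limma adjusted p = 0.101). Mxd1 stood at 23.3, 17.1, 17.2 and 21.5 FPKM and 17.9, 12.5, 13.9 and 17.1 FPKM, a change of 0.34 ± 0.15. Retnlg stood at 149, 79.2, 114 and 130 FPKM and Wfdc21 at 50, 17.3, 33.0 and 37.0 FPKM with hM3Dq, with changes of -0.02 ± 0.20 and 0.48 ± 0.40. Fpr2 changed by 0.48, Trem3 by 0.07, Stfa2l1 by -0.16 and Slfn4 by -0.48.

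**Figure D5:**
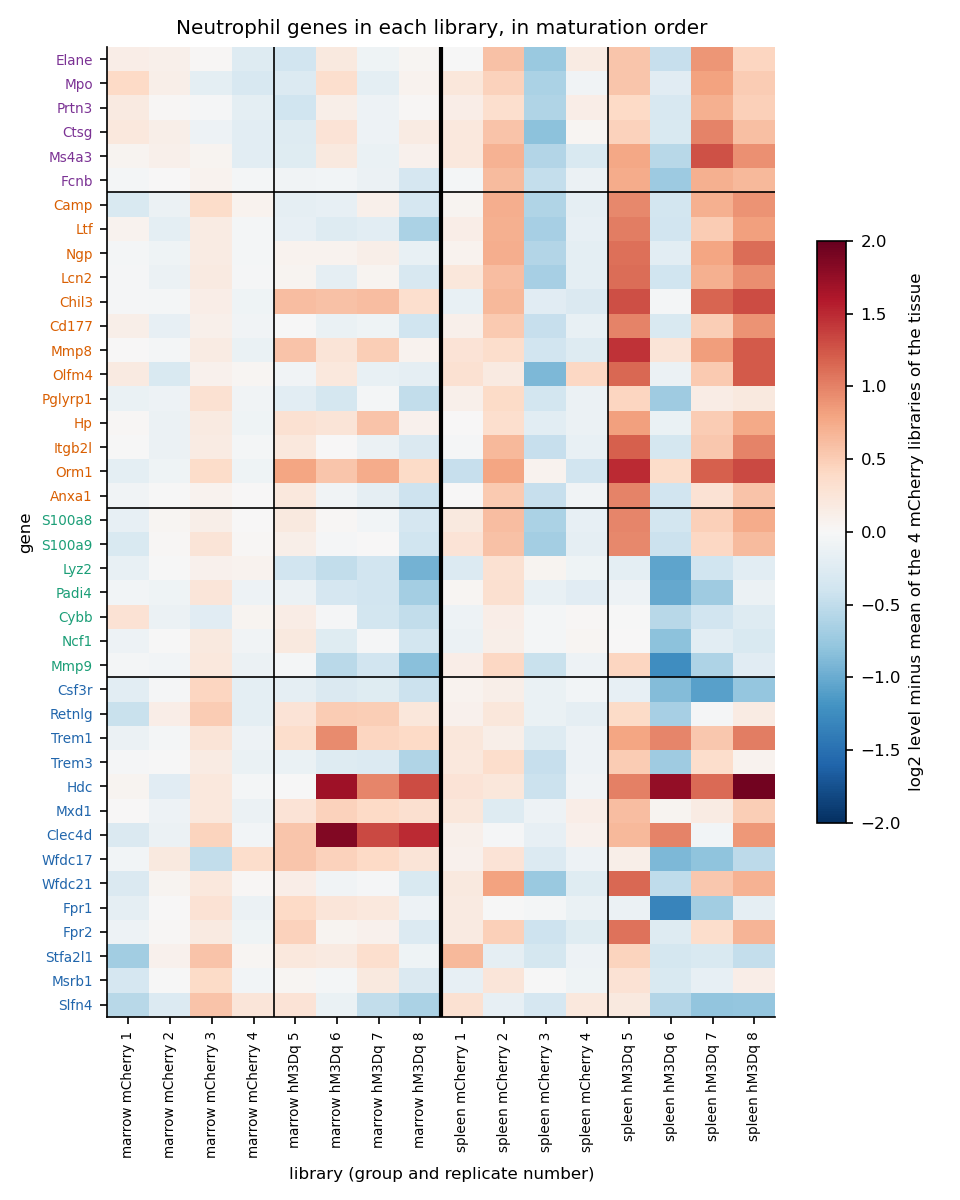
Level of each of the 40 genes in each library as the log2 difference from the mean of the 4 mCherry libraries of the same tissue, after composition scaling, with genes in maturation order from top to bottom and libraries as columns. Spleen hM3Dq library 6 and spleen mCherry library 3 are low over most of the granule genes, though not for Mmp8 and Orm1 in hM3Dq library 6. Hdc and Trem1 are above the control mean in every spleen hM3Dq library.

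Since the libraries differed in their overall level of these genes, each gene was also set against the median of the 40 in its own library, on the log2 FPKM scale. In spleen, Csf3r lay 0.04 to 0.74 above that median with hM3Dq and 1.24 to 1.59 above it with mCherry, without overlap. Hdc lay at -1.94 to -0.21 with hM3Dq and at -2.30 to -2.10 with mCherry. Trem1 lay at -3.10 to -1.93 and at -3.27 to -3.05, which overlapped. For Csf3r and Hdc the groups were therefore apart on this scale too, and for Trem1 they were not. Genes not called in spleen were also apart, such as Lyz2 (4.35 to 4.64 with hM3Dq and 4.85 to 5.69 with mCherry) and Mmp8 (0.33 to 0.62 and -0.45 to -0.05). Being apart on this scale was thus not particular to the called genes. In marrow, Chil3 lay 3.34 to 3.64 above the median with hM3Dq and 2.82 to 3.00 with mCherry, and Orm1 at -2.33 to -1.96 and -3.07 to -2.48. Clec4d lay at -2.79 to -1.38 and at -3.57 to -2.81, and Mxd1 at -1.55 to -1.20 and -1.76 to -1.53, the last pair overlapping. Among genes not called in marrow, Mmp9 (0.34 to 0.92 with hM3Dq and 0.98 to 1.25 with mCherry) and Hp (1.26 to 1.77 and 1.01 to 1.23) were apart too. The median of the 40 itself was 7.91 to 8.14 with hM3Dq and 7.96 to 8.08 with mCherry in marrow, and in spleen it was 3.79 to 4.77 with hM3Dq (mean 4.32) and 3.68 to 4.27 with mCherry (mean 4.05).

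The difference between the effects in marrow and in spleen was tested over all 16 libraries, and 0 of the 40 genes were called. In that test 2 of the 40, Wfdc17 and Fpr1, had unadjusted p under 0.05, beside 8.91% of the 17987 genes tested. Voom called 0 of the 40 and 29 of all genes, and limma called 0.10% of the genes tested. Wfdc17 had a change of 0.42 in marrow and -0.51 in spleen, a difference of 0.94 ± 0.30 (limma adjusted p = 0.304). Fpr1 had a change of 0.20 in marrow and -0.57 in spleen, a difference of 0.77 ± 0.29 (limma adjusted p = 0.427). The 19 primary and secondary granule genes all had a smaller change in marrow than in spleen, with class medians of the difference of -0.42 and -0.64, and their lowest adjusted p was 0.598. A miss of the threshold does not show that the tissues responded alike.

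Of 54 other neutrophil genes listed beside the 40, 6 were called higher and 1 lower in marrow, beside 3.14% and 1.71% of all genes tested. Cebpb, Gfi1 and Cebpa, transcription factors of myeloid maturation, rose by 1.26 ± 0.21, 0.49 ± 0.08 and 0.34 ± 0.08 on the log2 scale (limma adjusted p = 0.0149, 0.0148 and 0.0401). They come from a list of 9 maturation factors, of which 4 had marrow changes above 0, with a median change of -0.02. Cebpe and Spi1, the genes of C/EBP-epsilon and PU.1, were not called. Il1r2, the decoy receptor of interleukin-1, rose by 2.58 ± 0.21, the chemokine gene Cxcl2 by 3.48 ± 0.76 and the lipopolysaccharide co-receptor gene Cd14 by 2.42 ± 0.48, while Il1rn, the interleukin-1 receptor antagonist, fell by 0.67 on the log2 scale. In spleen 4 of the 48 tested were called, all higher: Il1r2 (2.47 ± 0.24), Cd14 (1.74 ± 0.44), Cxcr4, a receptor that holds neutrophils in marrow (1.55 ± 0.10), and Dgat2, a triglyceride-synthesis enzyme (0.99 ± 0.14). Of all genes tested in spleen, 3.72% were called higher. Several of the genes named here, including Cebpb, Cd14 and Cxcr4, are expressed by other leukocytes as well.

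Markers of other cells moved beside these results. In marrow 1 of 8 monocyte markers was called, Fn1 (0.89 ± 0.18, limma adjusted p = 0.0265), and the summed monocyte level was 499 to 685 FPKM with hM3Dq and 462 to 576 FPKM with mCherry. The markers were divided, with 5 of 8 changes above 0 and a median change of 0.02. Clec4d, Trem1 and Chil3 are also expressed by monocytes. The 8 erythroid markers had median changes of -0.95 in marrow and -0.69 in spleen, and none was called. In marrow the haemoglobin share of reads was 0.391% to 2.38% with hM3Dq and 1.34% to 2.84% with mCherry. The progenitor marker Flt3 was called higher in both tissues (0.82 ± 0.14 and 1.01 ± 0.11). Of the 5 progenitor markers tested, 2 had changes above 0 in marrow and 4 in spleen, with median changes of -0.02 and 0.38. No marker of these lists stood at 0 in marrow, and Spink2 of the progenitor list was listed at 0 in libraries of both spleen groups. In spleen 3 of 6 B cell markers were called, all lower, with a median change of -0.36, and 1 of 8 macrophage markers was called higher. In marrow 0 of 6 B cell markers and 1 of 8 macrophage markers, lower, were called, and 0 of 6 T cell markers were called by limma in either tissue. The part of these cells in the changes of the 40 genes was not tested.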

How the data were processed

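RNA of CD45+ cells was sequenced in 16 libraries, 4 per group. Per the submitters' processing notes, reads were handled with CASAVA 1.9, STAR 2.6.1a, featureCounts and edgeR 3.28.1 on GRCm38; for the annotation release and the strand setting, nothing was stated. The authors deposited FPKM per gene, per the file headers. Symbols came from GENCODE M21.

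Fragments were recovered from the deposited FPKM and exon lengths: 27922 of 31954 genes above 0 (87.4%) were whole within 0.01 of a fragment in every library at the M21 length, and 4029 at another length. Depth was 11344502 to 16962763 fragments, and 99.98% to 99.99% of assigned fragments were recovered. Low counts limit precision, and p-values cover the spread between libraries.

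Genes with at least 10 fragments in at least 4 libraries of a comparison were tested with limma 3.58.1 (R 4.3.3; moderated test with a trend of the spread on the mean, two-sided) on log2(FPKM / TMM factor + 0.1), adjusted by Benjamini-Hochberg over all genes tested; a pseudocount understates changes of low genes. No count model was the main test because the values are FPKM; voom on recovered fragments was an alternative. The method was checked on simulated data. These had less spread between libraries than most spleen granule genes showed, and no difference between tissues beyond the changes put in. The check therefore does not cover that spread. Other alternatives were no TMM factors, a pseudocount of 1, no filter, a mean FPKM of 1 or more, all 16 libraries in one fit, a haemoglobin covariate, a replicate block and leaving out each library. The members, lists and tests were chosen with earlier results of these data known. Values of every library are given for each member called in marrow or spleen and for the 2 highest of each role in marrow mCherry; other members are given by level and change, and of the other neutrophil genes at most 4 called per direction and list.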

Additional observations from a re-analysis of the deposited data

Results flagged for a closer look

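In each of the 4 groups of each of the 40 genes, the highest or lowest library was set against the other 3 by Dixon's ratio, the gap to the nearest library over the whole range. Of 160 such groups 10 had a ratio above its 95% critical value for 4 libraries, and chance gives about 1 in 20.

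In marrow hM3Dq library 6, Trem1 was 33.1 FPKM with the others at 21.6 to 22.1, and Mxd1 was 105 FPKM with the others at 91.6 to 93.4. Among marrow mCherry libraries, library 3 was highest for Mxd1 (80.3 FPKM, others 66.3 to 68.3) and Hp (545 FPKM, others 468 to 472). Olfm4 was lowest in mCherry library 2 (55.5 FPKM, others 69.0 to 71.4) and Anxa1 in mCherry library 1 (541 FPKM, others 610 to 616).

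In spleen hM3Dq library 6, Fcnb was 4.21 FPKM with the others at 10.3 to 10.9, and Chil3 was 122 FPKM with the others at 262 to 287. Chil3 was highest in spleen mCherry library 2 (178 FPKM, others 97.5 to 106), and Fpr1 was highest in spleen mCherry library 1 (8.10 FPKM, others 6.60 to 6.85).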

How the results depend on the processing

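Direction and side of the threshold held for 600 values of the marrow against spleen comparison in all but 8, which concern Wfdc17. In marrow, the count of all genes called moved from 781 to 300 with no filter, 1618 with all 16 libraries in one fit and 271 to 714 on leaving out a library, and members called moved from 4 to 0 with no filter, 2 with the haemoglobin covariate and 0 to 4 on leaving out a library. In spleen, genes called moved from 1390 to 598 with no filter, 872 with the haemoglobin covariate and 410 to 1731 on leaving out a library, and members called from 3 to 6 with all 16 libraries in one fit and 1 to 6 on leaving out a library. In the test of the difference between tissues, genes called moved from 18 to 11 with no composition scaling, 81 with a pseudocount of 1, 29 with voom and 3 to 36 on leaving out a library, while 0 members were called in every one. With the replicate block, 9 genes were called there and 11320 between marrow and spleen, with 0 and 40 members. Libraries with the same number had correlations of 0.037 to 0.338 between tissues, above 0.1 in 4 of 8 pairs; since not every pair passed 0.1 and the labels give no shared mouse, the numbers were not treated as pairs. A hint from the data, not the design, is that 7 of 8 correlated best with their own number. Members near 0 changed sign. With no composition scaling, the marrow changes of Itgb2l, Olfm4 and S100a8 were 0.03, those of Mpo and Ms4a3 0.06, Msrb1 0.05, Elane 0.02, Wfdc21 0.01 and S100a9 0.0023, the spleen changes of Msrb1 and Retnlg 0.02 and 0.00079, and the differences between tissues of Msrb1 and Mmp9 0.03 and 0.01. With the haemoglobin covariate Msrb1 was 0.03 in marrow and 0.02 in spleen, and Retnlg 0.08 in spleen, and with voom Msrb1 was 0.00043 in spleen. On leaving out a library, marrow changes ran from -0.13 to 0.05 for Itgb2l, -0.13 to 0.13 for Mpo, -0.15 to 0.05 for Elane, -0.15 to 0.02 for Olfm4 and Wfdc21, -0.09 to 0.05 for Ms4a3, -0.06 to 0.12 for Ctsg, -0.04 to 0.21 for Fpr2, -0.12 to 0.06 for S100a8, -0.17 to 0.04 for S100a9, -0.16 to 0.02 for Prtn3, -0.06 to 0.35 for Stfa2l1 and -0.13 to 0.11 for Msrb1. Spleen changes ran from -0.15 to 0.19 for Retnlg, -0.11 to 0.27 for Pglyrp1, -0.09 to 0.32 for Trem3, -0.36 to 0.05 for Stfa2l1 and -0.10 to 0.09 for Msrb1. Differences between tissues ran from -0.06 to 0.13 for Mxd1, -0.31 to 0.24 for Mmp9, -0.07 to 0.24 for Padi4, -0.28 to 0.06 for Lyz2 and -0.12 to 0.12 for Msrb1. The cause of these shifts was not tested. Groups of 4 and a depth of 20 fragments for the lowest gene value limit what small changes can be told from the spread.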
